A study of Mus musculus with 6 samples.

Results

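Endoplasmic reticulum (ER) chaperones and genes of the unfolded protein response were examined in 4T1, a cell line from a mouse mammary carcinoma, with and without a short hairpin RNA against NFAT1. The genes were chosen by symbol from a list of 42, and 41 of them had a probe set that names a single gene, out of 18193 genes on the array. Cdnf was not analysed here, and Ero1l is given under its current symbol Ero1a. Each gene was read from 1 probe set, its brightest on average over the 6 arrays.

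The arrays fall into NFAT1 shRNA cells, transduced with a vector that expresses an shRNA against NFAT1, and control cells, transduced with a control shRNA, with 3 arrays each. NFAT1 is a transcription factor that calcium and calcineurin activate, and its gene is Nfatc2. Both groups were adherent cultures selected for 10 days, and 200 ng of total RNA per sample was labelled for an Affymetrix array. The labels do not say how many shRNA sequences were used, whether the cells were clonal, or whether each array had a culture of its own, and p-values here cover no more than the spread of these samples, and that spread may be technical. Values are log2 RMA signals, where a step of 1 is a doubling of signal, and each difference is NFAT1 shRNA minus control. As the RNA came from bulk cultures, fewer cells of a kind and less RNA per cell cannot be told apart.

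Secreted and membrane proteins enter the ER through the Sec61 channel, and are folded there by chaperones built around BiP, the product of Hspa5, and by enzymes that form disulfide bonds. Proteins that fail to fold are moved back to the cytosol and degraded. When unfolded proteins accumulate, the sensors IRE1 (Ern1), PERK (Eif2ak3) and ATF6 signal to the nucleus, and the factors XBP1 and ATF6 raise chaperone and degradation genes while PERK slows translation and raises ATF4. Secretory and tumour cells are known to rely on this system.

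The letters through which ATF6 and XBP1 are known to act are present near the starts of several of these genes, and the stretches that hold them are shown. The list was not chosen by these letters, but it holds genes that these factors are known to raise. A high share of the letters among them is therefore no independent result. Promoter windows of 300 bases, from 250 before to 50 after the start, were taken from RefSeq on build GRCm38.p6 and matched 36 of the 42 genes. The ER stress element ERSE, which is CCAAT, 9 bases of any kind and CCACG, searched on both strands, was found in 8 of these 36 genes (22.2%), against 37 of 27025 genes in the whole table (0.137%). The shorter ERSE-II, which is ATTGG, 1 base of any kind and CCACG on either strand, was found in Dnajb11 and Herpud1, or 5.56%, against 0.0444% of all genes. ERSE-II shares the 5 letters CCACG with ERSE, and no gene held both. The element UPRE, TGACGTGG on either strand, was found in 0 of the 36 genes and in 0.714% of all genes, which says only that these letters are not in these windows. GGAAAA, the core to which NFAT proteins bind, was found on either strand in 10 of the 36 genes (27.8%), close to the 26.1% of all genes.

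The stretches below run 5′ to 3′ in the direction of transcription, with the outer 5 letters of each element in capitals. An element on the opposite strand reads CGTGG first and ATTGG last.
Hspa5, chr2:34772015-34772053, plus strand: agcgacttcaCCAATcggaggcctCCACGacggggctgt
Syvn1, chr19:6046522-6046560, plus strand: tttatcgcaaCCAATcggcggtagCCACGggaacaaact
Pdia6, chr12:17266481-17266519, plus strand: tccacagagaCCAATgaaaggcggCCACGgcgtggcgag
Dnajc3, chr14:118937817-118937855, plus strand: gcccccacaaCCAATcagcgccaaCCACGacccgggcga
Canx, chr11:50325790-50325828, minus strand: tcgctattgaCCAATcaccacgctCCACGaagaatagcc
Creld2, chr15:88819510-88819548, plus strand: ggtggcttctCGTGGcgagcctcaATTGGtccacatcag
Derl3, chr10:75893232-75893270, plus strand: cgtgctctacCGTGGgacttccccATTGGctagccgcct
Hsp90b1, chr10:86705523-86705666, minus strand: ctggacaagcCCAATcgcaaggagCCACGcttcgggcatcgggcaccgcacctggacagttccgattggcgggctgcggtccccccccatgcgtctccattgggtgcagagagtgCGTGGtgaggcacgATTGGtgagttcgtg
Herpud1, chr8:94386367-94386397, plus strand: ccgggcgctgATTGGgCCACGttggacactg
Hsp90b1 held 2 copies in opposite orientations, and each of the other genes shown held 1. Counting back from the start, the element began at base -65 in Hspa5 and at base -156 in Derl3.

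**Figure D1:**
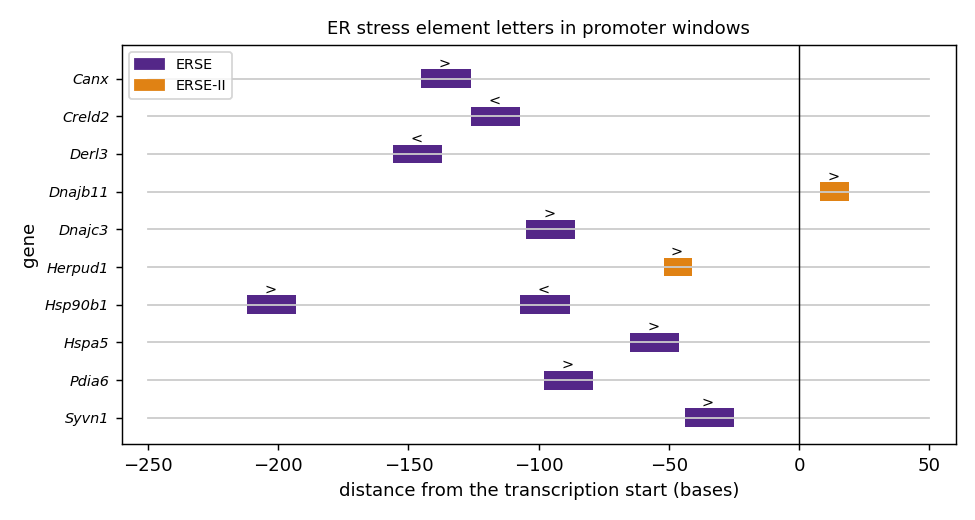
Positions of the ERSE (purple) and ERSE-II (orange) letters in the promoter windows of the 10 genes that hold them, as the distance in bases from the transcription start, with the window drawn as a line and the arrowheads giving the orientation. The elements lie before the start except in Dnajb11, where ERSE-II runs from base 8 to base 18 after it.

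The targeted gene did not read the same way on all of its probe sets. Of 6 Nfatc2 probe sets, 4 had lower and 2 had higher means in NFAT1 shRNA cells, and none passed limma over all probe sets. On the probe set with the largest difference Nfatc2 read 5.15, 5.43 and 5.29 on the NFAT1 shRNA arrays, against 6.05, 6.18 and 5.91 on the control arrays, a difference of -0.76 ± 0.11 (SE, adjusted p = 0.0707). On its brightest probe set Nfatc2 differed by 0.35 ± 0.12 (adjusted p = 0.251), so the arrays are called by their labels. The array medians ran from 5.42 to 5.48. The array of NFAT1 shRNA 1 stood apart: over all probe sets its correlations were 0.991 to 0.995 with control arrays and 0.986 and 0.985 with the other NFAT1 shRNA arrays. For 25 of the 41 genes (61.0%), the control 3 value was between those of controls 1 and 2. This held for 55.0% of all genes and for 69.0% of genes that averaged 6 or more in a group. Of the epithelial markers Epcam was bright, at a mean signal of 12.43 and 12.22 in NFAT1 shRNA and control cells. Krt5 of that list was dim, at 5.19 and 5.25. Of the leukocyte markers Ptprc averaged 2.96 and 2.95 and Csf1r 8.09 and 8.27.

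None of the 41 genes passed the limma test over all genes at an adjusted p under 0.05, where 0.511% of all genes passed. The genes leaned downward in size: the mean was lower in NFAT1 shRNA cells for 28 of 41 (68.3%), against 40.7% of all genes and 47.5% of the 9923 genes that averaged 6 or more in a group. The median difference was -0.14 over the 41 genes, 0.04 over all genes and 0.02 over the brighter genes, to which 40 of the 41 belong. At an unadjusted p under 0.05, 7 genes were lower (17.1%) and 2 were higher (4.88%). By that rule 7.01% of all genes were lower and 10.1% higher, and 11.5% and 12.7% of the brighter genes. The 3 NFAT1 shRNA arrays lay below all control arrays for 12 genes (29.3%) and above them for 4 (9.76%), where this held for 8.61% and 14.2% of all genes and for 12.6% and 14.3% of the brighter genes. The lean was not the same on every array: the median of the 41 genes against the control mean was -0.047, -0.13 and -0.20 on NFAT1 shRNA 1, 2 and 3, and between 0.0002 and 0.0086 on the control arrays. NFAT1 shRNA 1 was the NFAT1 shRNA array nearest to the control mean for 24 of the 41 genes (58.5%), against 46.3% of all genes and 58.7% of the brighter genes. Without it, the median difference of the 41 genes was -0.17.

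**Figure D2:**
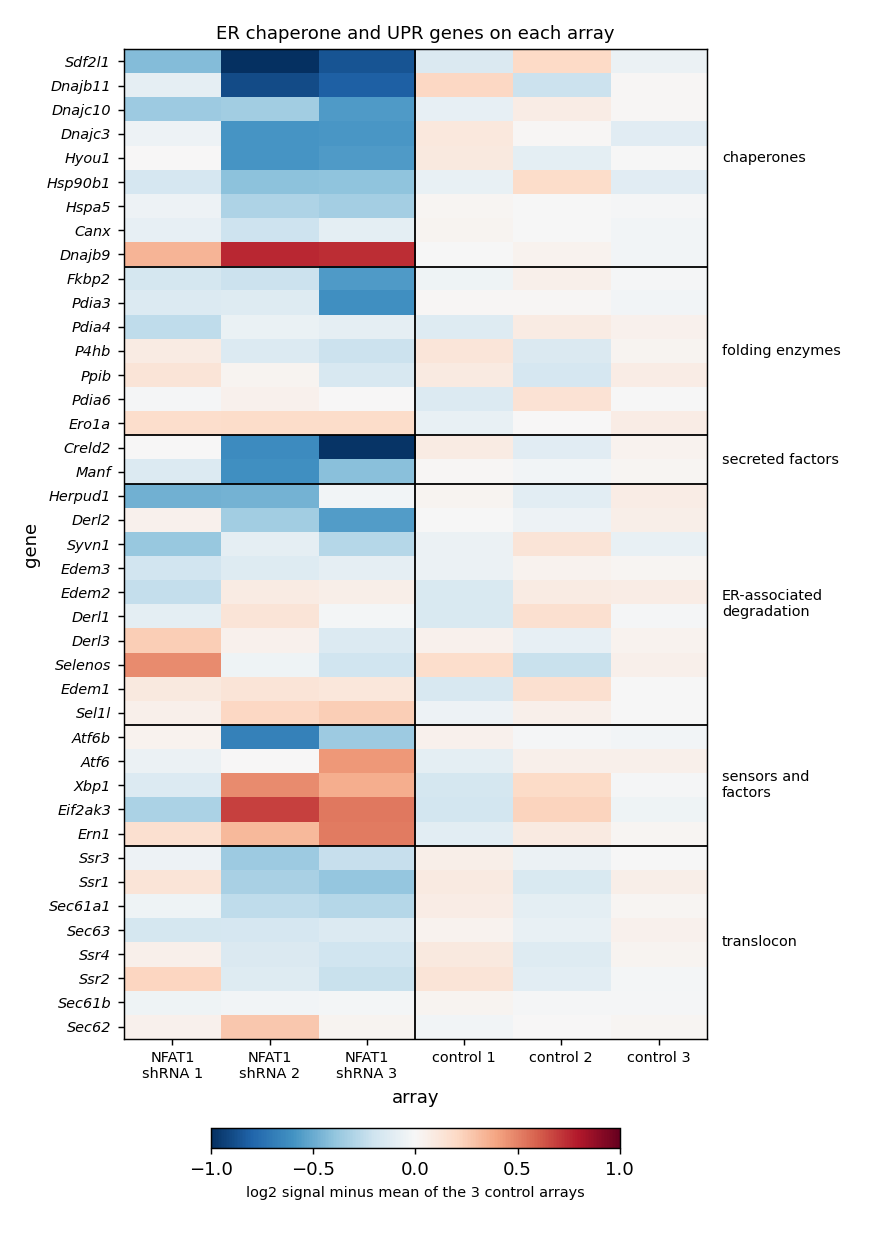
Log2 signal of the 41 genes (down the page, by role) on the 6 arrays (across), as the distance from the mean of the 3 control arrays, with blue for lower, red for higher and values past 1 drawn at 1. Most chaperone rows are blue on NFAT1 shRNA 2 and 3 and pale on NFAT1 shRNA 1, Dnajb9 is red on all 3, and Xbp1, Eif2ak3 and Ern1 are red on NFAT1 shRNA 2 and 3.

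Of the 9 chaperones, 8 averaged lower in NFAT1 shRNA cells and Dnajb9 higher, and the median difference was -0.38. None of the 9 passed the test. At an unadjusted p under 0.05, 5 were lower (55.6%) and 1 was higher (11.1%). By that rule 7.01% of all genes were lower and 10.1% higher, and 11.5% and 12.7% of the brighter genes. In 8 of the 9, NFAT1 shRNA 1 was nearest of its group to the control mean. Sdf2l1, which encodes a resident partner of the co-chaperone Dnajb11 in the BiP cycle, read 8.14, 7.41 and 7.71 on the NFAT1 shRNA arrays, against 8.43, 8.78 and 8.52 on the control arrays. Every NFAT1 shRNA array was below every control array, with NFAT1 shRNA 2 lowest. The difference was -0.82 ± 0.20 (SE, n = 3 each), a 1.77-fold lower signal with a 95% interval of -1.30 to -0.35, and it was the lowest of the 41 genes, but it did not pass (adjusted p = 0.155).

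Dnajb9, a J-domain co-chaperone that brings BiP to IRE1 and is known as a target of XBP1, went the other way. It read 8.66, 9.07 and 9.05 on the NFAT1 shRNA arrays, against 8.31, 8.35 and 8.29 on the control arrays. The control arrays lay within a narrow band, and all NFAT1 shRNA arrays were above it. The difference was 0.61 ± 0.13 (SE, n = 3 each), a 1.53-fold higher signal with an interval of 0.31 to 0.92, and it had the smallest adjusted p of the 41 genes (0.121). Sdf2l1 and Dnajb9, both known to be raised by ER stress, thus had differences of opposite sign on the same arrays.

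Dnajb11, a J-domain co-chaperone that hands unfolded proteins to BiP, read 10.01, 9.20 and 9.28 on the NFAT1 shRNA arrays, against 10.30, 9.88 and 10.10 on the control arrays. NFAT1 shRNA 1 lay within the control range while NFAT1 shRNA 2 and 3 lay below it, and the difference was -0.60 ± 0.23 (SE, adjusted p = 0.272). Dnajc10, a J-domain reductase that breaks wrong disulfide bonds, read 10.34, 10.35 and 10.13 on the NFAT1 shRNA arrays, against 10.61, 10.77 and 10.71 on the control arrays. Here NFAT1 shRNA 1 was as low as NFAT1 shRNA 2, the groups did not overlap, and the difference was -0.43 ± 0.10 (SE, adjusted p = 0.140). Dnajc3, which encodes the co-chaperone p58IPK, read 9.56, 9.02 and 9.02, against 9.71, 9.62 and 9.49 on the control arrays, with NFAT1 shRNA 1 again among the controls (-0.41 ± 0.16, SE, adjusted p = 0.285).

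Hspa5, which carries the ERSE shown above and had the highest signal of the 41 genes, read 13.19, 12.93 and 12.90 on the NFAT1 shRNA arrays, against 13.26, 13.23 and 13.23 on the control arrays. The control arrays were nearly equal, and all NFAT1 shRNA arrays were below them, by a mean of 0.23 on the log2 scale or 1.17-fold (adjusted p = 0.301). Hsp90b1, the ER member of the HSP90 family, whose window holds 2 ERSE copies, read 12.23, 11.99 and 11.99, against 12.32, 12.58 and 12.28 on the control arrays. These groups did not overlap either, and the difference was -0.33 ± 0.12 (SE, adjusted p = 0.256). Hyou1, a large HSP70-like protein that helps BiP exchange its nucleotide, read 10.58, 9.99 and 10.01, against 10.68, 10.48 and 10.58 on the control arrays. Its NFAT1 shRNA 1 value lay within the control range, and its difference was -0.38 ± 0.17 (SE, adjusted p = 0.314). Canx, the lectin chaperone calnexin, differed by -0.13 ± 0.08 without overlap of the groups (adjusted p = 0.406).

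**Figure D3:**
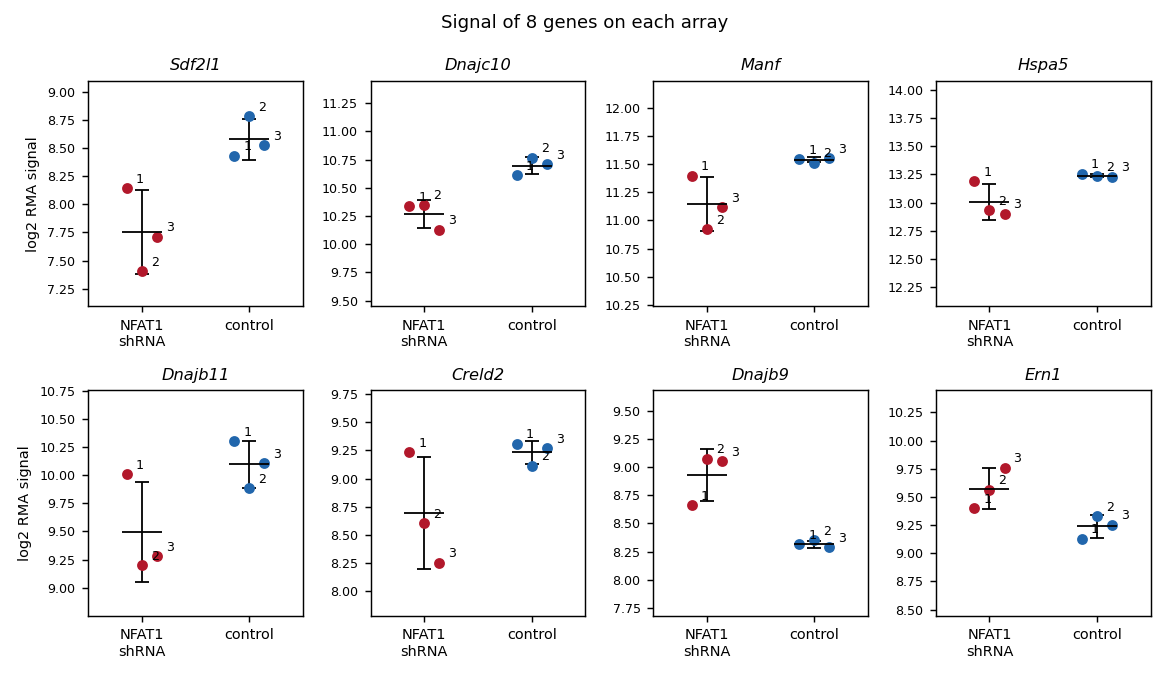
Log2 RMA signal of 8 genes on each array, with the array's number beside its point, the line at the group mean and bars of 1 SD (n = 3), and axes that all span 2 log2 units. Sdf2l1, Dnajc10, Manf and Hspa5 lie lower and Dnajb9 and Ern1 higher on all 3 NFAT1 shRNA arrays, while in Dnajb11 and Creld2 NFAT1 shRNA 1 lies among the control arrays.

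Among the 7 folding enzymes the differences were smaller, from -0.32 to 0.18 with a median of -0.09, and none passed. Fkbp2, a prolyl isomerase of the ER, read 10.32, 10.28 and 9.93 on the NFAT1 shRNA arrays, against 10.45, 10.54 and 10.48 on the control arrays. The groups did not overlap, and NFAT1 shRNA 3 was lowest (-0.32 ± 0.12, SE, adjusted p = 0.271). Pdia3, the disulfide isomerase that works with calnexin, read 11.51, 11.52 and 11.03, against 11.66, 11.66 and 11.62 on the control arrays, so most of its difference of -0.29 ± 0.14 (SE, adjusted p = 0.341) came from NFAT1 shRNA 3. Ero1a, the oxidase that recharges disulfide isomerases, read 10.24, 10.25 and 10.24, against 9.99, 10.06 and 10.13 on the control arrays, above all of them by a mean of 0.18 (adjusted p = 0.293). Both of its other probe sets were lower, by 0.32 and 0.28 in size, so Ero1a has no settled direction. The disulfide isomerases Pdia4 and P4hb differed by -0.14 and -0.09, and their groups overlapped. For Pdia6 and the prolyl isomerase Ppib the differences were 0.011 and -0.0025, with 95% intervals of -0.22 to 0.24 and -0.28 to 0.28.

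Both secreted factors were lower in mean. Manf, a small ER protein released under stress, read 11.40, 10.92 and 11.12 on the NFAT1 shRNA arrays, against 11.55, 11.51 and 11.55 on the control arrays. The groups did not overlap, and the difference was -0.39 ± 0.13 (SE, 1.31-fold lower, adjusted p = 0.227). Creld2, an ER protein with epidermal growth factor-like repeats, read 9.23, 8.61 and 8.25, against 9.31, 9.12 and 9.27 on the control arrays. NFAT1 shRNA 1 lay within the control range, the other NFAT1 shRNA arrays lay below it, and the difference was -0.53 ± 0.24 (SE, adjusted p = 0.313).

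The 10 genes of ER-associated degradation were split, with 5 lower and 5 higher in mean and a median difference of -0.015. Herpud1, a scaffold of the degradation complex that carries the ERSE-II shown above, read 8.84, 8.84 and 9.29 on the NFAT1 shRNA arrays, against 9.35, 9.22 and 9.39 on the control arrays. In this gene NFAT1 shRNA 3, not NFAT1 shRNA 1, lay among the controls (-0.33 ± 0.14, SE, adjusted p = 0.300). Syvn1, the ubiquitin ligase HRD1, read 8.74, 9.03 and 8.84, against 9.06, 9.25 and 9.05 on the control arrays, with no overlap and a difference of -0.25 ± 0.11 (SE, adjusted p = 0.299), but its other probe set differed by -0.053. Its partner Sel1l had a difference of 0.17 ± 0.09 in the other direction (adjusted p = 0.359).

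The derlins, membrane proteins of the retrotranslocation site, differed among themselves. Derl2 read 9.90, 9.51 and 9.30 on the NFAT1 shRNA arrays, against 9.85, 9.80 and 9.92 on the control arrays (-0.29 ± 0.16, SE, adjusted p = 0.372). Derl1 differed by 0.0014, with an interval of -0.27 to 0.27. Its other probe sets, all dimmer, differed by -0.43, -0.22 and -0.023 (adjusted p = 0.289, 0.429 and 0.921 over all probe sets). On the one at -0.22 the groups did not overlap. Derl3, the dimmest of the 41 genes, averaged 5.58 in NFAT1 shRNA cells and 5.53 in control cells, close to the array medians, where RMA compresses differences. The mannosidase-like genes Edem1, Edem2 and Edem3, whose products mark glycoproteins for degradation, differed by 0.11, -0.032 and -0.14. The second probe set of Edem1 read 8.36, 7.84 and 7.77 on the NFAT1 shRNA arrays, against 8.72, 8.64 and 8.77 on the control arrays, a difference of -0.72 (adjusted p = 0.158 over all probe sets), so Edem1 has no settled direction. Selenos, a selenoprotein that links the derlins to the cytosolic ATPase, differed by 0.078 with an interval of -0.39 to 0.55.

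Among the sensors and factors, 4 of 5 genes had a higher mean, with a median difference of 0.23, and none passed. Ern1, which encodes the sensor IRE1, read 9.40, 9.56 and 9.76 on the NFAT1 shRNA arrays, against 9.13, 9.33 and 9.25 on the control arrays. All NFAT1 shRNA arrays were above all control arrays, and the difference was 0.34 ± 0.12 (SE, 1.26-fold higher, adjusted p = 0.242). Of the 4 other Ern1 probe sets, all below 7, 2 were lower and 2 higher.

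Eif2ak3, which encodes PERK, read 8.13, 9.13 and 8.97 on the NFAT1 shRNA arrays, against 8.26, 8.67 and 8.41 on the control arrays. NFAT1 shRNA 1 was the lowest of all 6 arrays and NFAT1 shRNA 2 the highest, so the difference of 0.30 ± 0.27 (SE, adjusted p = 0.570) has a wide interval, -0.34 to 0.94. Xbp1, the factor that IRE1 activates by splicing, read 11.00, 11.60 and 11.49, against 10.96, 11.32 and 11.12 on the control arrays, with NFAT1 shRNA 2 and 3 above all control arrays and NFAT1 shRNA 1 among them (0.23 ± 0.18, SE, adjusted p = 0.518). Which splice form the Xbp1 probe sets read was not analysed here. Atf6 differed by 0.13 ± 0.14, with NFAT1 shRNA 3 highest at 9.39, and its relative Atf6b by -0.34 ± 0.18, with NFAT1 shRNA 2 lowest at 7.89 (adjusted p = 0.658 and 0.361).

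The translocon genes were lower in mean in 7 of 8 cases, by small amounts, with a median difference of -0.13 and no gene past the test. Sec61a1, the channel subunit, read 11.67, 11.46 and 11.43 on the NFAT1 shRNA arrays, against 11.79, 11.62 and 11.74 on the control arrays (-0.19 ± 0.10, SE, adjusted p = 0.353). Sec63, which brings BiP to the channel, differed by -0.16 ± 0.08 without overlap (adjusted p = 0.325), and Sec62, its partner, by 0.12 ± 0.09, also without overlap (adjusted p = 0.530). Sec61b differed by -0.032 with an interval of -0.20 to 0.14. The 4 subunits of the translocon-associated protein complex, Ssr1, Ssr2, Ssr3 and Ssr4, differed by -0.20, -0.047, -0.22 and -0.10, and the groups overlapped on the probe set used for each. The other probe sets of Ssr1, all dimmer, differed by -0.34, -0.57 and -0.80 (adjusted p = 0.418, 0.198 and 0.188 over all probe sets). On those at -0.57 and -0.80 the groups did not overlap.

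**Figure D4:**
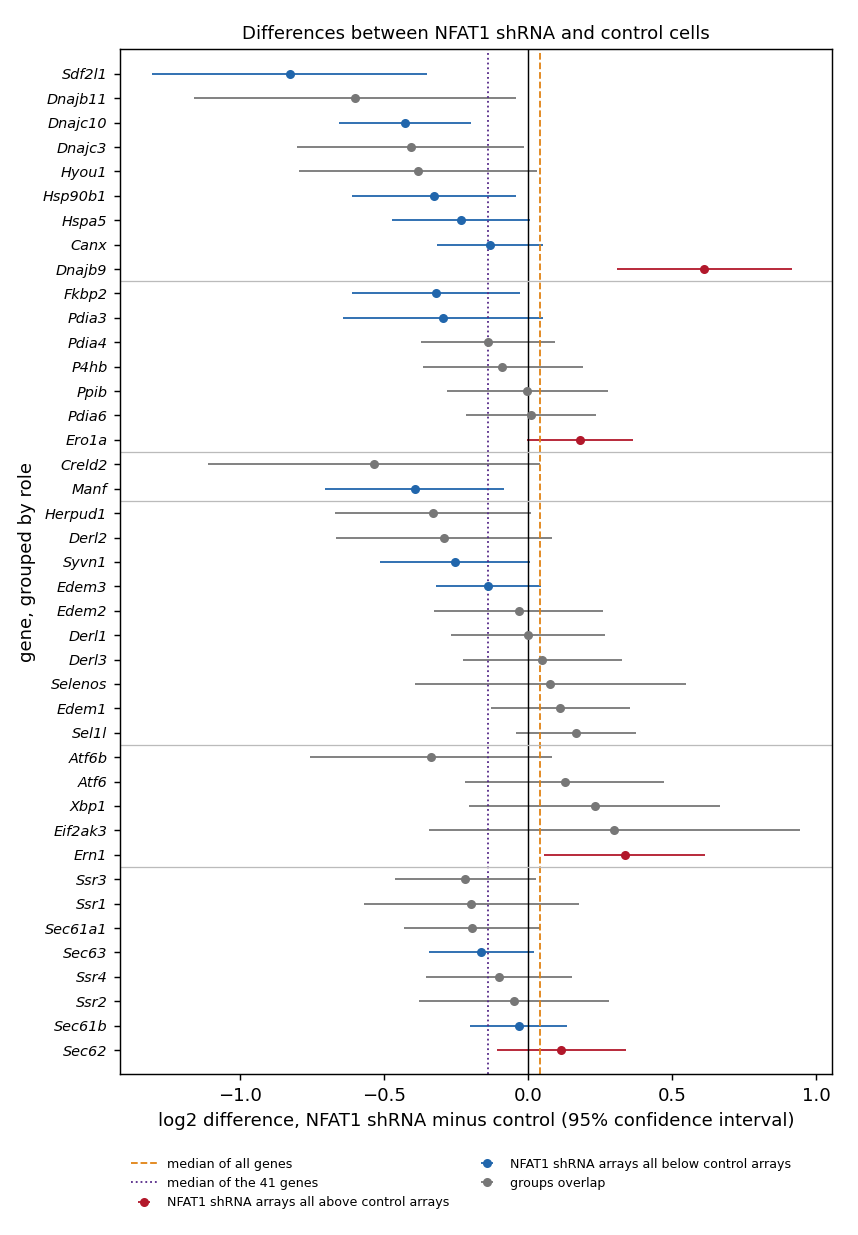
Log2 difference of each of the 41 genes (NFAT1 shRNA minus control) with its 95% confidence interval, grouped by role from chaperones at the top to the translocon at the bottom, with vertical lines at 0, at the median of the 41 genes (-0.14) and at that of all genes (0.04). Sdf2l1 lies farthest to the left at -0.82 and Dnajb9 farthest to the right at 0.61. The intervals of 9 of the 41 genes exclude 0, 7 lower (17.1%) and 2 higher (4.88%). An interval excludes 0 where the unadjusted p is under 0.05, which held for 17.1% of all genes, 7.01% lower and 10.1% higher. Of genes that averaged 6 or more in a group, 11.5% were lower and 12.7% higher by that rule.

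Probe sets that the choice of 1 per gene left out gave a second reading of 30 genes. Of these 64 probe sets, 44 had the sign of the one used, and at a mean signal of at least 6 it was 35 of 49. None passed limma over all 45037 probe sets, of which 0.2% passed, and 11 were lower (17.2%) and 1 was higher (1.56%) with an unadjusted p under 0.05. By that rule 7.65% of all probe sets were lower and 8.03% higher, and the total of 18.8% stands beside 15.7% of all probe sets. All probe sets had a lower mean in 14 genes, among them Dnajc10, Dnajc3, Hsp90b1, Hyou1 and Herpud1, and a higher mean in Pdia6 alone. The other probe sets of Dnajc10 differed by -0.51 and -0.55, both without overlap (adjusted p = 0.107 and 0.0870 over all probe sets). The other probe sets of Hspa5 differed by -0.44 (adjusted p = 0.228) and 0.09. Sdf2l1, Dnajb9, Dnajb11, Manf and Creld2 each had a single probe set, so they have no second reading. When all probe sets of a gene were averaged, the difference was smaller by over 1.5 times in several genes. Among genes with a lower mean these included Derl2 (-0.13), Pdia3 (-0.20) and Syvn1 (-0.15). Among genes with a higher mean they included Eif2ak3 (0.13), Ern1 (0.07), Xbp1 (0.13), Sel1l (0.07), Sec62 (0.04), Atf6 (0.02) and Selenos (0.0007). Genes for which the difference was larger in size included Ssr1 (-0.48 against -0.20) and Pdia6 (0.13 against 0.011).

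Which of these genes passed the test depended on NFAT1 shRNA 1. Without that array 13 of the 41 genes passed limma (31.7%), but so did 18.4% of all genes. The 10 that were then lower were Sdf2l1 (-1.02, adjusted p = 0.00869), Dnajb11 (-0.86), Creld2 (-0.80), Dnajc3 (-0.58), Hyou1 (-0.57), Atf6b (-0.52), Manf (-0.52), Dnajc10 (-0.46), Derl2 (-0.46) and Hspa5 (-0.32). The 3 that were higher were Dnajb9 (0.75, adjusted p = 0.00496), Eif2ak3 (0.61) and Ern1 (0.42). By direction this was 10 of 41 genes lower, against 7.84% of all genes, and 3 higher, against 10.6% of all genes. The share among the brighter genes, to which 40 of the 41 belong, was not counted for the settings in this paragraph. With array weights, which gave NFAT1 shRNA 1 the lowest weight of the 6 arrays (0.253) and control 3 the highest (10.4), 9 genes passed as lower and 2 as higher, where 18.6% of all genes passed, 8.56% as lower and 10% as higher. Leaving out control 3 together with NFAT1 shRNA 1, Dnajb9 alone of the 41 passed (0.73, adjusted p = 0.0472), where 2.24% of all genes passed. Without NFAT1 shRNA 2, NFAT1 shRNA 3 or any 1 of the control arrays, 0 of the 41 genes passed with limma, where 0.011%, 0.363% and 0% of all genes passed.

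**Figure D5:**
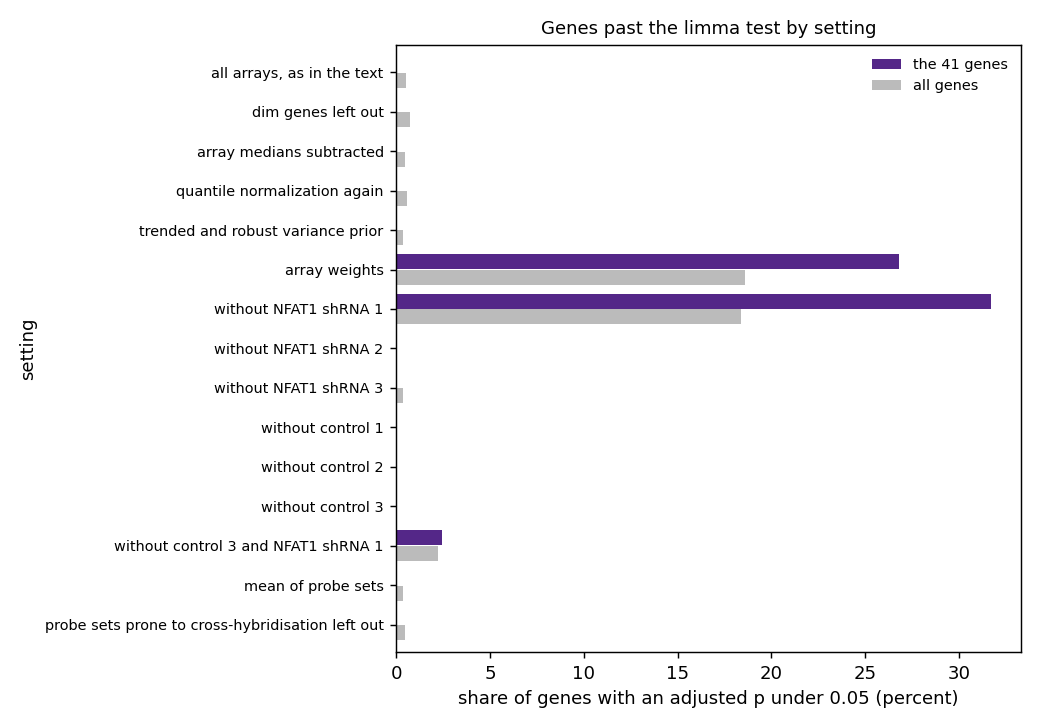
Percent of genes with an adjusted p under 0.05 in limma, for the 41 genes (purple) and all genes (grey), with all arrays at the top and the alternative settings below, except the replicate block, which is not drawn. The 41 genes reach 31.7% without NFAT1 shRNA 1 and 26.8% with array weights, where all genes reach 18.4% and 18.6%, and without control 3 and NFAT1 shRNA 1 they are at 2.44%, where all genes are at 2.24%. In the other settings drawn, none of the 41 genes passed.

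Set against the promoter letters shown above, the 10 genes with an ERSE or ERSE-II had a median difference of -0.29, with 8 lower and 2 higher in mean. The 25 measured genes whose windows held neither had a median of -0.09, with 16 lower and 9 higher. Both Sdf2l1 and Dnajb9 are among the 25. The 10 genes with GGAAAA had a median of -0.10, with 6 lower and 4 higher. These are descriptions of letters in short windows, and binding of any factor was not measured.

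Other genes of the ER were read from lists. Of 30 genes of translocation, glycan transfer and ER exit, Stt3b fell and no other gene passed. Stt3b, a catalytic subunit of the oligosaccharyltransferase that glycosylates proteins in the ER, read 11.38, 11.29 and 11.34 on the NFAT1 shRNA arrays, against 12.09, 12.03 and 12.10 on the control arrays. The groups lay far apart relative to their spread, and the fall was 0.74 ± 0.07 (SE, 1.67-fold, adjusted p = 0.0260). Stt3b no longer passed when all its probe sets were averaged (-0.58, adjusted p = 0.0779), nor without NFAT1 shRNA 2, NFAT1 shRNA 3 or any control array (adjusted p from 0.0521 to 0.253). The mean was lower for 23 genes of this list (76.7%), against 40.7% of all genes and 47.5% of the brighter genes, and its median difference was -0.14. At an unadjusted p under 0.05, 9 were lower (30.0%) and 0 higher. By that rule 7.01% of all genes were lower and 10.1% higher, and 11.5% and 12.7% of the brighter genes. The NFAT1 shRNA arrays lay below all control arrays for 10 genes (33.3%) and above them for 1 (3.33%), against 8.61% and 14.2% of all genes. Kdelr3, a receptor that returns chaperones to the ER, differed by -0.66 (adjusted p = 0.0599) and Srprb, a subunit of the signal recognition particle receptor, by -0.72 (adjusted p = 0.286), or by -0.43 without its probe sets prone to cross-hybridisation.

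Of 24 other folding genes, 0 passed with limma, and the median difference was -0.13. With an unadjusted p under 0.05, 6 were lower (25.0%) and 2 higher (8.33%). By that rule 7.01% of all genes were lower and 10.1% higher, and 11.5% and 12.7% of the brighter genes. The thioredoxin-like gene Txndc11 differed by -0.58 (adjusted p = 0.0663), the oxidoreductase gene Tmx1 by -0.48 and Erp29 by -0.42. Higher in mean were Sdf2, the close relative of Sdf2l1, by 0.44 and Uggt1, which senses misfolded glycoproteins, by 0.42 (adjusted p = 0.278 and 0.288), though Uggt1 differed by 0.26 when its probe sets were averaged. Calr, the soluble lectin chaperone calreticulin, read 12.74, 12.19 and 11.93 on the NFAT1 shRNA arrays, against 12.74, 12.61 and 12.68 on the control arrays, with NFAT1 shRNA 1 at the control level (-0.39 ± 0.20, SE, adjusted p = 0.360). Of 18 other degradation genes, 0 passed with limma, and the median difference was 0.05. With an unadjusted p under 0.05, 2 were lower (11.1%) and 3 higher (16.7%). Ngly1, which strips glycans from retrotranslocated proteins, differed by 0.82 (adjusted p = 0.131), the ubiquitin ligase gene Rnf5 by 0.45 and the conjugating enzyme gene Ube2j1 by 0.36, while Aup1 and Rnf139 differed by -0.23 and -0.22. Averaged over probe sets, Ube2j1 differed by 0.14 and Rnf139 by -0.12.

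The PERK and ATF4 arm was also without a call, with 0 of 17 genes past limma and a median difference of 0.06. At an unadjusted p under 0.05, 2 were lower (11.8%) and 3 higher (17.6%). By that rule 7.01% of all genes were lower and 10.1% higher, and 11.5% and 12.7% of the brighter genes. Ppp1r15b, the standing partner of the phosphatase that reverses PERK's action, read 10.05, 9.64 and 9.60 on the NFAT1 shRNA arrays, against 10.65, 10.53 and 10.57 on the control arrays. The groups did not overlap, and the difference was -0.82 ± 0.14 (SE, adjusted p = 0.0709). Its other probe set differed by -0.24, and the mean of both by -0.53 (adjusted p = 0.494 and 0.190). Ddit3, which encodes the stress factor CHOP, read 7.35, 8.58 and 9.09, against 7.11, 7.61 and 7.20 on the control arrays, so NFAT1 shRNA 2 and 3 were high and NFAT1 shRNA 1 was not (1.03 ± 0.43, SE, adjusted p = 0.290). Trib3, a target of ATF4 and CHOP, read 7.16, 8.78 and 9.82, against 7.98, 8.43 and 8.18 on the control arrays, with NFAT1 shRNA 1 lowest of all 6 (0.39 ± 0.62, SE, adjusted p = 0.759). Nupr1 differed by 0.98, Sesn2 by 0.41 and Psat1 by -0.37 (adjusted p = 0.246, 0.271 and 0.250), and Sesn2 by 0.25 when its probe sets were averaged. Atf4 itself differed by -0.07, Chac1 by -0.28 and Ppp1r15a by 0.32, and the interval of Atf4 was -0.34 to 0.21.

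Chaperones of other compartments were read the same way. With an unadjusted p under 0.05, 7.01% of all genes were lower and 10.1% higher, and 11.5% and 12.7% of the brighter genes. Of 18 cytosolic heat shock genes, 0 passed with limma, and the median difference was -0.18. By the unadjusted rule 5 were lower (27.8%) and 1 was higher (5.56%). Among them Dnajb1 differed by -0.42, Ahsa1 by -0.42 and Hspb1 by -0.37, and Hspa1b by 0.24. Of 12 mitochondrial chaperone and protease genes, 0 passed with limma, and the median was -0.10. By the unadjusted rule 1 was lower (8.33%), Timm44 by 0.18 in size. A lower mean was thus seen in chaperone lists outside the ER as well, and whether the lists differ was not tested. Of 15 epithelial markers, 7 had a lower and 8 a higher mean, and their mean signal ran from 10.41 to 10.75 on the NFAT1 shRNA arrays and from 10.66 to 10.84 on the control arrays. A higher mean was seen in 59.3% of all genes and in 52.5% of the brighter genes. The 10 fibroblast markers were all higher in mean. Their average over the list was 4.68 to 4.79 on the NFAT1 shRNA arrays and 4.43 to 4.65 on the control arrays. That average is below the median signal of the arrays, but Pdgfra of this list read 6.82, 8.44 and 7.88 on the NFAT1 shRNA arrays and 6.30, 7.90 and 7.47 on the control arrays. The 6 endothelial markers were also all higher in mean, with a list average of at most 4.08 on any array, and Kdr was their brightest, at 5.96 in NFAT1 shRNA cells and 5.66 in control cells. The 9 leukocyte markers were split, with a list average of at most 4.75. No marker passed with limma, and 2 epithelial markers were lower (13.3%) and 1 higher (6.67%) with an unadjusted p under 0.05. The basal keratin gene Krt14 read 9.38, 7.46 and 8.40 on the NFAT1 shRNA arrays, against 10.67, 10.38 and 10.56 on the control arrays (adjusted p = 0.123), Dsp differed by -0.48 and Krt18 by 0.27. The part of these shifts in the chaperone values was not tested.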

How the data were processed

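RNA of 3 NFAT1 shRNA and 3 control samples of 4T1 cells was read on Affymetrix mouse arrays. The deposited log2 signals were made by the authors with RMA, per the submitters' processing notes, and its version is not given in the sources used here. RMA subtracts background, equalises array distributions and summarises probe sets, so a shift of most transcripts would be hidden and dim signals are compressed. Values ran from 1.80 to 14.22.

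Of 45037 probe sets, 34945 had 1 symbol in the platform annotation, which names 18193 genes. The 2 groups were fitted in limma 3.58.1 (lmFit, eBayes; R 4.3.3) with no filter or covariate, with Benjamini-Hochberg adjustment over all genes and 2-sided p-values, and intervals cover 95%. The fit was first run on simulated data, with noise drawn separately for each gene and array. Such noise holds no deviation shared across an array, so that run cannot show how the fit handles NFAT1 shRNA 1. The number of arrays, not a read depth, sets the precision. Tables were made with Python 3.11.15.

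The genes, gene lists, alternatives and naming rule were all chosen with earlier results of these data known. The naming rule took the 41 genes, Nfatc2, Atf4, Ddit3, Trib3, Chac1, Ppp1r15a and Calr, and from each other list the genes past the test and up to 3 each way with an unadjusted p under 0.05. Its dim fibroblast and endothelial genes Fap, Kdr and Emcn differed by 0.54, 0.31 and 0.27. Other readings of single genes were chosen after their values were seen. The alternatives were a filter on dim genes, array medians subtracted, a second quantile normalization, array weights, a robust prior with a trend, blocking on the replicate number, leaving out arrays, averaging all probe sets of each gene, and probe sets prone to cross-hybridisation (IDs ending in _x_at, _s_at or _a_at) left out where a gene had others.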

Additional observations from a re-analysis of the deposited data

How the results depend on the processing

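Of the 41 genes, 28 kept their sign under all 15 alternatives, 23 lower and 5 higher, and 13 turned in at least 1. The count of all genes that passed, 93, was 3380 with array weights, 792 with the replicate block, 407 without control 3 and NFAT1 shRNA 1, and 0 to 3349 with single arrays left out (0 without control 1, 2 or 3). Of the 41 genes, 11, 1 and 1 passed in the same 3 settings, and 0 to 13 with single arrays left out. The brightest Nfatc2 probe set passed with array weights, as higher in NFAT1 shRNA cells (0.43). The 1 gene with the replicate block was Dnajb9 (adjusted p = 0.0475). The labels share a number but state no pairing. Deviations of same-numbered arrays correlated at 0.692, 0.535 and -0.042 over all genes. NFAT1 shRNA 1 and 2 each correlated best with the control of the same number, and NFAT1 shRNA 3 with control 2 (0.465). The signs that turned, all without passing, were Pdia4 (0.0061), Edem1 (-0.30), Edem2 (0.011), Derl1 (-0.17), Ero1a (-0.14) and Nfatc2 (-0.14) with the mean of probe sets, Derl1 (-0.43) and Xbp1 (-0.11) without probe sets prone to cross-hybridisation, Pdia6 (-0.0083) and Derl1 (-0.018) with array medians subtracted, Sec61b (0.011) and Ppib (0.022) with a second quantile normalization, Derl3 (-0.020) and Selenos (-0.060) with array weights, and Edem2 (0.11), Derl3 (-0.028) and Selenos (-0.095) without control 3 and NFAT1 shRNA 1. With single arrays left out, Pdia6 ran from -0.058 to 0.082, Edem2 from -0.11 to 0.072, Derl1 from -0.073 to 0.081, Derl3 from -0.047 to 0.14, Atf6 from -0.026 to 0.22, Selenos from -0.12 to 0.22, Ssr2 from -0.18 to 0.042, Ppib from -0.085 to 0.078, Atf4 from -0.15 to 0.020 and Trib3 from -0.23 to 1.10. The cause of these turns was not tested beyond what each setting removes. The number of arrays limits every call, and Derl3 is limited by its signal near background.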
